A study of Mus musculus with 8 samples.

Results

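H3K56ac peaks in later introns were examined here, that is, peaks inside introns of protein-coding genes other than the first intron and away from every transcription start site (TSS). They were taken from a merged list of 105600 H3K56ac peaks of mouse muscle stem cells (MuSCs). A peak belonged to this class when it was autosomal and under 5000 bp wide, lay wholly inside introns of protein-coding genes, and was not inside intron 1 of any protein-coding transcript. It also had to lie more than 3000 bp from every TSS annotated in GENCODE on mm10 and to overlap no exon. The rule was met by 15323 peaks, which were 14.5% of all peaks and 15.8% of the 97157 autosomal peaks under 5000 bp.

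MuSCs were sorted by flow cytometry, without culture, from muscles of C57BL/6 mice. Control mice carried the wild type label. For other experiments with this knockout, the paper describes controls as littermates with floxed Sirt6 and no Cre. In Sirt6mKO mice, floxed exons of Sirt6, the gene of a nuclear deacetylase, were deleted by a Cre recombinase expressed from Pax7, so that deletion reached the whole Pax7 lineage and not adult MuSCs only. Each genotype was represented by 2 immunoprecipitated libraries and 2 input libraries of chromatin that was not immunoprecipitated, 8 in all. The peak list merged the libraries and held positions only, so that Control and Sirt6mKO could not be compared and no peak could be ranked by height. Which libraries contributed a given peak, and their depth, cannot be read from this list. For quiescent MuSCs the paper reports fewer H3K56ac peaks than this list holds, and it describes a global increase in Sirt6mKO MuSCs. The densities below need not hold for either genotype alone.

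Lysine 56 lies in the core of histone H3 near the point where DNA enters the nucleosome, and its acetylation marks active promoters and distal regulatory elements. Introns make up most of the length of a gene and often hold enhancers, the elements that bind transcription factors and act on a promoter from a distance. Introns close to the start of a gene are generally richer in such elements than those farther along, and an enhancer inside an intron may act on its host gene or on a neighbour.

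The sequences below were read from the RefSeq mouse genome, build GRCm38 (mm10), on the strand of the host gene. They give an impression of single members from host genes that recur in the results. Capitals mark letters of 2 motifs searched on both strands, TGANTCA, bound by AP-1 factors, and CAGCTG, an E-box bound by MyoD-type factors. The Lpp and Rad51b stretches surround the AP-1 letters of a peak in each of the 2 genes with the most members, and in Lpp the AP-1 letters overlap an E-box. The stretches from Pax7 and Met, which are MuSC genes, surround an E-box and were chosen after the values were seen.
Lpp intron 2, chr16:24458535-24458684, strand +: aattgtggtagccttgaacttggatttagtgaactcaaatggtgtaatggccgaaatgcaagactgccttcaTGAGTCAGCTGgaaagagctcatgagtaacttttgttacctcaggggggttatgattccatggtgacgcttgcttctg
Rad51b intron 7, chr12:79362790-79362939, strand +: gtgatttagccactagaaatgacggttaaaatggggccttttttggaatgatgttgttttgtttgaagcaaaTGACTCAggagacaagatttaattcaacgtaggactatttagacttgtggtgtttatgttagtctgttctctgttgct
Pax7 intron 8, chr4:139743745-139743894, strand -: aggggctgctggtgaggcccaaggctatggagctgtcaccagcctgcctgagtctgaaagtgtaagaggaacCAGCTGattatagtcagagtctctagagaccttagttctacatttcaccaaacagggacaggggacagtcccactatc
Met intron 18, chr6:17566205-17566354, strand +: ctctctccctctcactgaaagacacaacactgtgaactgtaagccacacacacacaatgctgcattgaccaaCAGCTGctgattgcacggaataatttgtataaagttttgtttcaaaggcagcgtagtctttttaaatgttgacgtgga

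The cell type was checked by promoter peaks, since the list holds no expression values. All 20 MuSC marker genes, among them Pax7, Myf5 and Calcr, had a peak within 3 kb of a TSS. The same was true of 4 of 10 endothelial, 3 of 10 immune and 7 of 8 fibro-adipogenic markers, and of 76.3% of the 13440 autosomal genes with later-intron sequence. Pecam1 and Vwf were among the endothelial genes with a promoter peak, and Cdh5, Tie1, Ptprc and Itgam had none. A peak at a promoter does not by itself identify the cell it came from, and the part of other cells in the peaks below was not tested.

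Later introns were sparsely occupied compared with first introns and densely compared with intergenic sequence. Eligible sequence, meaning every base that met the conditions on position, summed to 467 Mb in later introns. It includes stretches too short to hold a typical peak, and bases under peaks that are not members. Members amounted to 32.8 peaks per Mb (95% interval 32.3 to 33.4). First introns under the same limits held 15930 peaks in 234 Mb, or 68.1 per Mb (67.1 to 69.2). Intergenic sequence 10 to 100 kb from a TSS held 16535 peaks in 727 Mb, or 22.8 per Mb (22.4 to 23.1). Members thus stood at 0.482 times the density of first introns (0.471 to 0.493) and at 1.44 times that of intergenic sequence (1.41 to 1.48). Intervals on densities are exact Poisson intervals at the 95% level. They describe the error of counting alone, since a peak does not stand for an animal or a culture.

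The order of later and first introns held on 19 of 19 autosomes, and later introns exceeded intergenic sequence on 18 of 19, the exception being chromosome 13. The density of members ran from 25.4 per Mb on chromosome 1 to 40.2 per Mb on chromosome 11, and the median chromosome stood at 34.6 per Mb. The excess over intergenic sequence depended on which TSSs counted. When TSSs of noncoding transcripts were ignored, the ratio to intergenic sequence was 0.980 and no longer above 1, while later introns stayed below first introns.

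The members were of ordinary size for peaks away from promoters. Their median width was 815 bp (interquartile range 580 to 1330 bp), against 840 bp in first introns and 856 bp in intergenic sequence. The widest members allowed by the limit lay in Slc7a8, an amino acid transporter gene (4999 bp, chr14:54749489-54754487, intron 3), Thsd4 (4997 bp, chr9:60231694-60236690, intron 6) and Gnaq, which encodes a G protein subunit (4989 bp, chr19:16288775-16293763, intron 2). Another 461 peaks met every condition except the width limit. Peaks just inside and just outside that limit numbered 130 (4500 to 5000 bp) and 87 (5000 to 5500 bp). By number, the limit thus cut a thin tail. Members summed to 17.3 Mb, whereas peaks of any class covered 6.36% of the 467 Mb of eligible sequence. Members were thus only part of the covered sequence.

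Members often lay in groups. The median gap from a member to the nearest other peak of any class was 463 bp, and 64.2% had another peak within 1 kb (Wilson 95% interval 63.4 to 65.0%). In first introns the share was 71.5% (70.8 to 72.2%), and in intergenic sequence it was 64.2%. The 15323 members occupied 6007 introns, of which 788 held at least 5 members. Each member was counted in the shortest annotated intron around it, and the most in 1 intron were the 63 in intron 8 of Wwox, which is 639 kb long.

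The difference between first and later introns was present at every distance from a TSS. The median member lay 17777 bp from the nearest TSS, and the farthest, in intron 3 of Npas3 (chr12:53721878-53722655), lay 356737 bp away. At 5 to 10 kb, later introns held 34.5 peaks per Mb (33.3 to 35.8) and first introns 90.3 (87.9 to 92.9). At 20 to 50 kb the values were 37.6 (36.5 to 38.7) and 60.6 (58.6 to 62.7), and beyond 100 kb they were 18.1 (16.9 to 19.5) and 27.3 (24.1 to 30.8). The intervals did not overlap at any of the 6 distances. In first introns density fell steadily beyond 10 kb, whereas in later introns it was nearly level from 5 to 50 kb and fell only beyond. Intergenic density at 10 to 20, 20 to 50 and 50 to 100 kb was 27.1, 24.6 and 15.4 per Mb, below later introns each time. Values at 3 to 5 kb, 23.9 in later introns, are low in part by construction, because a peak had to lie beyond 3 kb over its whole width. Peaks just outside this limit, 2500 to 3000 bp from a TSS and otherwise meeting the rule, numbered 442, with a median width of 777 bp, and those just inside, at 3000 to 3500 bp, numbered 404, with a median of 810 bp.

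**Figure D1:**
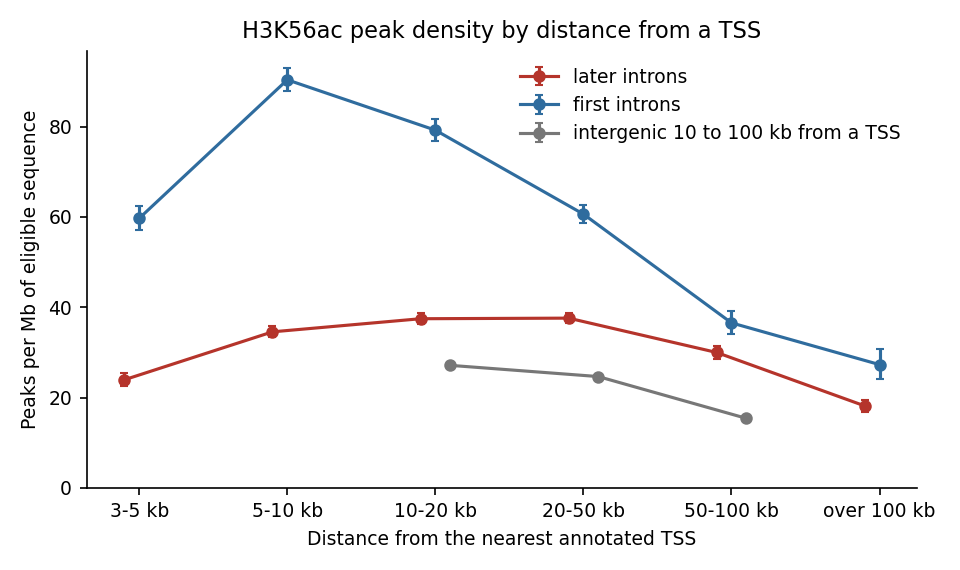
H3K56ac peaks per Mb of eligible sequence (vertical axis) by distance from the nearest annotated TSS (horizontal axis) in later introns, first introns and intergenic sequence; bars are exact Poisson 95% intervals. Later introns peak at 37.6 per Mb at 20 to 50 kb, below first introns at every distance and above intergenic sequence where both were measured.

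Within later introns, density fell with the number of the intron. Each base was given the lowest number that any protein-coding transcript assigned to it. Peaks had to lie wholly between exons, whereas all intronic bases outside the limits counted as eligible. This lowers the density of short introns by construction. Neither this gradient nor the contrast with first introns was read by intron length or distance from an exon. Intron 2 held 5631 members at 48.4 per Mb (47.1 to 49.6). Density was 37.2 per Mb in intron 3 and 31.5 in intron 4, and it reached 26.4 in introns 6 to 10, 20.02 in introns 11 to 20 and 15.9 (14.5 to 17.3) beyond intron 20. Intron 5, at 32.1 per Mb (30.3 to 34.1), did not differ from intron 4 (29.9 to 33.2) beyond counting error. The gradient was then read within bands of distance from a TSS. At 5 to 10 kb from a TSS, density was 53.9 per Mb in intron 2, 39.9 in intron 3, 24.9 in introns 6 to 10 and 16.9 beyond intron 20. At 50 to 100 kb the order was uneven, with 39.2 per Mb in intron 2, 28.4 in intron 3, 40.9 in intron 4 and 16.6 beyond intron 20. Beyond 100 kb it was lost, with 16.5 per Mb in intron 2 and 26.5 in introns 6 to 10. The last intron of a transcript was not depleted, at 35.3 per Mb (34.0 to 36.6) against 32.3 (31.8 to 32.9) in other later introns.

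Peaks changed little in form along the gene. Median width was 825 bp in intron 2 and 779 bp beyond intron 20, and median GC content was 44.6% and 44.3%. The share with another peak within 1 kb went from 67.1% to 58.6%.

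The gradient was also seen within single genes. In 1773 genes with at least 20 kb of eligible sequence in both first and later introns, density was higher in the first introns of 939 and in the later introns of 454, and 380 held no such peak in either. Pooled over these genes, first introns held 62.5 and later introns 34.2 peaks per Mb. In 808 genes with at least 20 kb in both intron 2 and higher introns, intron 2 was denser in 324 and the higher introns in 254, with no peak in 230. The pooled values were 48.3 and 28.6 per Mb. First introns were thus denser in a majority of the genes that held any of these peaks, but a large minority of genes went the other way.

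Inside an intron, members lay toward the middle. Split into 5 equal stretches from the 5′ end, introns held 24.8, 34.7, 38.3, 37.5 and 28.2 members per Mb. The edge of a member was at a median of 4608 bp from the nearest exon, and the host intron had a median length of 28889 bp. Density rose from 5.42 per Mb within 0.5 kb of an exon to 48.7 at 5 to 10 kb and was 39.0 at 10 to 50 kb and 23.1 beyond 50 kb. The low values beside exons follow in part from the rule, which removes peaks that touch an exon.

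Members sat in a minority of genes. Of 13440 protein-coding autosomal genes with eligible sequence, 3232, or 24.0%, held at least 1 member. Genes counted here however short that sequence was, for example 0.605 kb in Foxo1. A single member was found in 1288 genes, 2 to 4 in 1066, 5 to 9 in 448 and 10 or more in 430. These 430 genes took 54.4% of the 15466 pairs of gene and peak. The pairs outnumber the members because 143 peaks lay in introns of 2 genes. Another 376 members lay inside the body of an annotated noncoding gene. The share of genes with a member rose with length, from 10.8% of genes under 50 kb to 69.2% of those of 200 to 500 kb, and was 64.1% at 500 kb or more, whereas density was highest, 44.6 per Mb, in genes of 100 to 200 kb and was 19.5 per Mb in genes of 500 kb or more.

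Most host genes carried a peak at a promoter of their own, 2968 of 3232 (91.8%), against 76.3% of all genes with eligible sequence. A promoter peak, meaning a peak within 3 kb of any TSS of the host gene, was present in 10254 genes. These held 96.3% of the members (Wilson 95% interval 96.0 to 96.6%) in 77.7% of the eligible sequence. Density was 40.7 per Mb (40.1 to 41.4) where the host had a promoter peak and 5.44 per Mb (5.00 to 5.91) in the 3186 genes without, a ratio of 7.48 (6.88 to 8.15). No member lies within 3 kb of a TSS, so these promoter peaks are distinct from the members.

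Density followed the width of the promoter peak. By the widest peak at any promoter of the gene, it was 11.4 members per Mb for peaks under 1 kb, 19.2 at 1 to 2 kb, 36.6 at 2 to 5 kb, 59.4 at 5 to 10 kb and 114 (110 to 119) at 10 kb or more. The share of genes with a member went from 8.29% without a promoter peak to 58.4% with one of at least 10 kb, against the 24.0% of all genes.

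The gap between hosts with and without a promoter peak held at each distance from a TSS and for each intron number. At 5 to 10 kb it was 40.2 against 7.13 per Mb, and beyond 100 kb 28.1 against 1.94. In hosts with a promoter peak, density fell from 60.5 per Mb in intron 2 (58.9 to 62.1) to 19.8 beyond intron 20 (18.01 to 21.7). In hosts without, it showed no such fall, with 5.42 in intron 2 (4.56 to 6.4) and 5.24 beyond intron 20 (3.81 to 7.04).

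**Figure D2:**
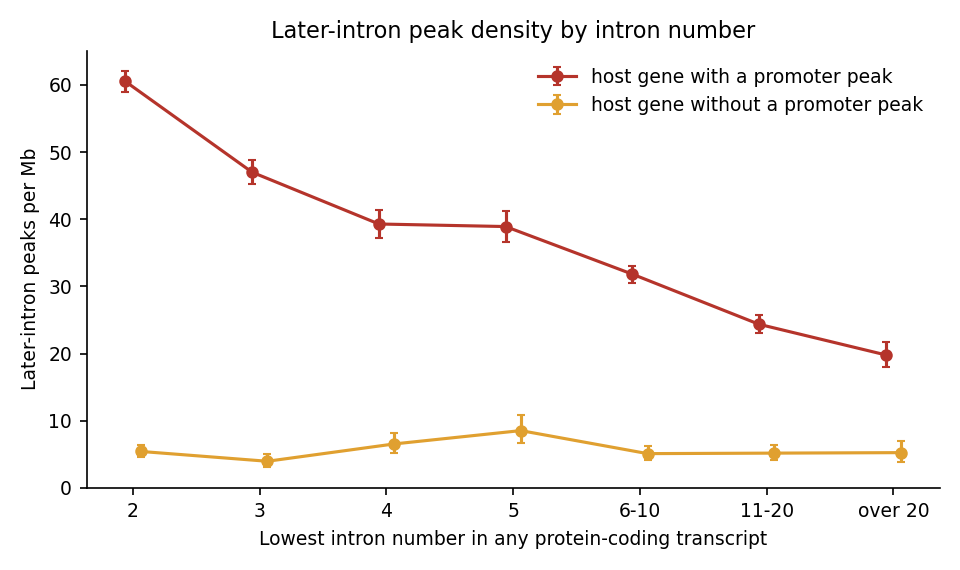
Later-intron peaks per Mb of eligible sequence (vertical axis) by the lowest intron number in any protein-coding transcript (horizontal axis), for host genes with and without a promoter peak; bars are exact Poisson 95% intervals. The density falls from 60.5 to 19.8 per Mb in hosts with a promoter peak and stays between 3.96 and 8.52 per Mb in hosts without.

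The genes with the most members were long genes of varied function. Lpp, which encodes a LIM domain protein of focal adhesions, held 95 members (chr16:24393507-24992578, 599 kb), of which 26 lay in intron 2 and 27 in a single intron 5. Rad51b, a DNA repair gene, held 90 in introns 7 to 10, 32 of them in intron 7. Arid1b, a subunit of the BAF chromatin remodelling complex, held 88, with 37 in an intron 4 of 116 kb. All 3 genes were far denser than later introns as a whole, with 195, 178 and 306 members per Mb.

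Fgfr2, a receptor for fibroblast growth factors, held 86 members, but at 44.5 per Mb. Its gene model spans 2961 kb and has an intron 2 of 2909 kb, and 25 of the 86 lay in no shorter intron, so that at least these depend on that transcript model. Wwox, which encodes an oxidoreductase with WW domains, held 81 members at 94.3 per Mb in 913 kb. The RNA-binding protein genes Rbms3 and Msi2 held 74 each, at 125 and 216 per Mb. In Rbms3 another 82 peaks lay in first introns, whereas Msi2 has no eligible first-intron sequence.

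The remaining genes of the 15 with most members held between 50 and 61. They were Tenm4, a teneurin of cell adhesion (61), Lrmda (58), Setbp1 (58), the zinc finger repressor gene Zbtb20 (57), Thsd4, of extracellular microfibrils (57), the insulin-like growth factor receptor gene Igf1r (53), the Rac regulator Arhgap15 (50) and Trabd2b, a Wnt protease gene (50). In Igf1r, 48 of 53 members were in an intron 2 of 161 kb, which placed it at 273 per Mb. In Trabd2b 40 were in intron 2, and in Setbp1 47 were. In Zbtb20 the widest promoter peak spanned 52538 bp and 42 further peaks were in first introns. Members of one intron were thus often a large part of a gene's total.

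**Figure D3:**
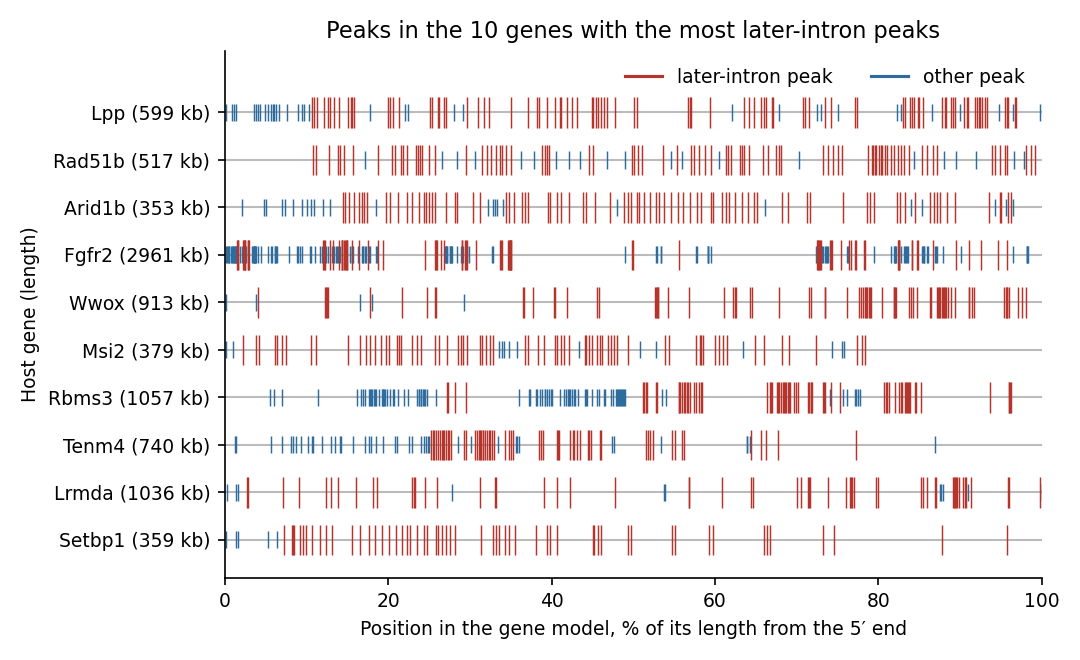
Positions of peaks along the 10 genes with the most later-intron peaks, as percent of the length of the gene model from its 5′ end (horizontal axis), with 1 line per gene (vertical axis, length in brackets); long ticks are later-intron peaks and short ticks all other peaks. Members are spread over most of Lpp, Arid1b and Setbp1 and lie in dense runs in Tenm4, Rbms3 and Wwox.

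By density, the leading genes were mostly others. Among 2135 genes with at least 50 kb of eligible sequence the median was 16.2 members per Mb, and 767 held none. Kirrel, which encodes a nephrin-like adhesion protein, had 18 members at 325 per Mb. Tcf4, an E protein gene, had 16 at 317, and Adam19, a membrane metalloprotease gene, had 19 at 308. Next came Tcf7l1, a transcription factor of the Wnt pathway (35 members, all in intron 2, 307 per Mb), and Arid1b. The others were the netrin gene Ntn1 (49 members, 295 per Mb), Smad6, an inhibitor of BMP signalling (17, all in intron 3, 293 per Mb), the phosphodiesterase gene Pde7b (37, 274 per Mb), Igf1r and the lipase gene Mgll (18, 269 per Mb). Each of these 10 genes had a promoter peak, of 3026 bp in Mgll and 17990 bp in Arid1b at the extremes.

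Gene lists were compared by density, because long genes offer more sequence. Counts of genes with a member were not matched for length, and their share was 10.8% under 50 kb and 69.2% at 200 to 500 kb. The lists were chosen with results of these data known, and the densities are descriptions without a test. Of the 20 MuSC genes 13 had eligible sequence, and 8 of these (61.5%, against 24.0% of all genes) held 34 members, at 94.99 per Mb (65.8 to 133). Muscle and mesenchymal transcription factor genes reached 94.7 per Mb (85.5 to 105), with members in 25 of 34 (73.5%). The value for all protein-coding genes, counted over pairs of gene and peak, was 32.9 per Mb. All 13 and all 34 genes had a promoter peak, against 76.3% of all genes. Some of these peaks were wide, as in Megf10 (33642 bp), Pax7 (21301 bp) and Zbtb20 (52538 bp), whereas that of Met spanned 4033 bp. Over all genes, density was 59.4 per Mb with promoter peaks of 5 to 10 kb and 114 at 10 kb or more. The lists were not matched for promoter width.

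Among MuSC genes, Megf10, a receptor involved in MuSC proliferation, held 15 members over introns 2 to 17 and was responsible for 44.1% of the list. Pax7, the transcription factor that defines MuSCs, held 8 (gene on chr4:139737062-139833528, minus strand), and the hepatocyte growth factor receptor gene Met held 5. In Pax7, 4 members stood side by side in intron 4, from chr4:139808460-139809250 to chr4:139815322-139818968, each at most 50 bp from its nearest neighbour, and their widths were 791, 3858, 2059 and 3647 bp. Of its other members, 3 were in intron 7 and 1 in intron 8, the last at 87879 bp from the nearest TSS. The Pax7 members were wide, with a median of 2915 bp against 815 bp for all members, and those of Met also, at 2875 bp. Calcr, the calcitonin receptor gene of quiescent MuSCs, held none in 34.3 kb of eligible sequence. Its widest promoter peak spanned 25343 bp. Eligible sequence may lie under peaks that are not members, so that a gene without members may still carry H3K56ac peaks there.

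Of the transcription factor genes, Zbtb20 was followed by Eya4 with 30 members, 28 of them in intron 2, and Tcf7l2 with 29, 16 of them in an intron 4. Without Zbtb20 the list stood at 87.7 per Mb. Meis2, a homeobox gene, was the longest of the list without a member, with none in 163 kb of eligible sequence and a promoter peak of 2782 bp.

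Genes of signalling and of chromatin were above all genes, but 1 gene decided each value. Receptors and Notch pathway genes held 195 members at 70.8 per Mb (61.2 to 81.5), in 16 of 22 (72.7%, against 24.0% of all genes). Without Fgfr2 and its long gene model the list stood at 133 per Mb. Insr, the insulin receptor gene, held 13, and Maml3, a coactivator of Notch, held none in later introns and 13 peaks in first introns. Chromatin regulators held 143 members at 110 per Mb (92.4 to 129), in 13 of 17 (76.5%). Without Arid1b they stood at 54.1. The acetyltransferase gene Kat6a held 11, the deacetylase gene Hdac4 10, and the demethylase gene Kdm4c none.

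Genes of the differentiated muscle fibre were close to all genes in pooled density. Their share of genes with a member was above that of all genes, but was not matched for length. Genes of the dystrophin complex, which links the cytoskeleton to the matrix, held 92 members at 34.8 per Mb (28.1 to 42.7). These lay in 11 of 17 genes (64.7%, against 24.0% of all genes). By length, the share over all genes was 57.6% at 100 to 200 kb and 69.2% at 200 to 500 kb. The median gene of the list stood at 51.5 per Mb, against 0 over all genes and 16.2 over genes with at least 50 kb of eligible sequence. Lama2, a laminin chain gene, held 24 of the 92 members over introns 3 to 35. The syntrophin genes Sntb1 and Sntg2 held 17 and 13, and Sgcd held none in 452 kb of eligible sequence. Utrn, the paralogue of dystrophin, held 9 members at 32.8 per Mb, the same as later introns as a whole, and 17 peaks in first introns. The 9 were 429 to 2931 bp wide. By the lowest number in any transcript they lay in introns 2 to 24, and only 3 were in intron 2. These numbers do not follow the order along the gene, which is on the minus strand. The member at chr10:12535329-12535961, numbered intron 2, lay farther toward the 3′ end than that at chr10:12694116-12694662, numbered intron 24. The widest was in intron 8, at chr10:12739780-12742710, 210 bp from an exon.

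Sarcomere and excitation-contraction genes held 54 members at 32.1 per Mb (24.1 to 41.8), in 11 of 24 (45.8%, against 24.0% of all genes). Nebl (16), Myom1 (13) and Ldb3 (7) led, and Ttn, the giant sarcomere protein gene, held none in 114 kb. Genes of integrins, laminins and collagens were at 48.2 per Mb (37.4 to 61.2). After Lama2, the basement membrane collagen gene Col4a2 held 18 and Col5a1 held 6, while Lama4 held none.

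Neuronal and immune genes held few members for their length, and endothelial genes did not differ from all genes beyond counting error. Long neuronal genes held 86 members in 20.97 Mb, or 4.10 per Mb (3.28 to 5.06). At least 1 member was in 16 of 30 (53.3%, against 24.0% of all genes), and 15 of 30 had a promoter peak. Over all genes of 500 kb or more, the share was 64.1% and the density 19.5 per Mb. Ptprd, a receptor phosphatase gene, held 24 of the 86 members at 92.4 per Mb, Dlg2 held 13 and Galntl6 held 12. Cntnap2, with 1516 kb of eligible sequence, held none and was the longest such gene of all. Immune genes held 1 member, in Dock2, at 1.78 per Mb (0.0450 to 9.90), and Adgre1 held none. Endothelial genes held 15 members at 27.4 per Mb (15.3 to 45.1) in 4 of 10 genes (40%). Erg and Vwf held 5 each and Pecam1 held 3, and Flt1 held none. Erg had no promoter peak.

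**Figure D4:**
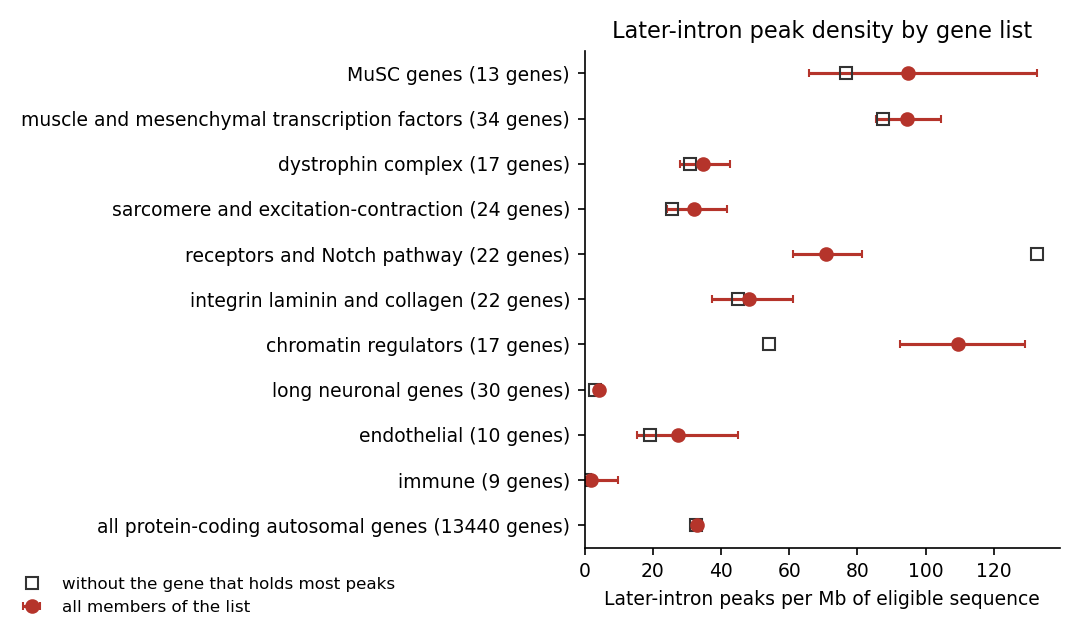
Later-intron peaks per Mb of eligible sequence (horizontal axis) for each gene list (vertical axis, with the number of genes that have eligible sequence); filled points carry exact Poisson 95% intervals and open squares leave out the gene of each list with the most peaks. MuSC and transcription factor genes stand at 94.99 and 94.7 per Mb, long neuronal genes at 4.10, and leaving out 1 gene moves the receptor list to 133 and the chromatin list to 54.1.

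The sequence of the members was somewhat richer in G and C than later-intron sequence outside peaks, but little richer than its own flanks. Their median GC content was 44.7% (interquartile range 41.3 to 48.1%), close to first-intron (44.4%) and intergenic peaks (45.1%). Taken over all bases it was 44.8%, against 41.9% in eligible later-intron sequence outside peaks. Annotated repeats made up 18.9% of member bases and 29.96% of the sequence outside. Reads were kept only where they aligned once, which lowers coverage in repeats, and the part of this in the difference was not tested. CpG dinucleotides were rare in members, with a median ratio of observed to expected of 0.190 and an upper quartile of 0.256, so that members were mostly not CpG islands. The sequence outside stood at 0.183, but as a pooled value and not a median over peaks, so that the values are not strictly alike.

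Short motifs were searched on both strands in the central 300 bp of the 15074 members of at least that width, and in 1399200 windows of 300 bp from eligible sequence outside peaks. The E-box CAGCTG was in 17.8% of members (Wilson 95% interval 17.2 to 18.4%) and in 10.7% of windows outside. The same letters in another order, CTGCAG, were in 15.7% and 10.8%, so that most of this difference was shared by a motif of equal composition. Within bands of GC content, chosen after the data were seen, the E-box stood at 14.0% against 10.4% at 40 to 45% GC, 19.3% against 14.8% at 45 to 50% and 26.6% against 20.1% at 50 to 55%. The reordered letters stood at 13.2% against 10.4%, 17.3% against 14.5% and 23.3% against 20.3%. Members thus exceeded the windows in each band for both, and by more for the E-box.

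TTGGCA, bound by nuclear factor I, was in 17.8% of members and 14.1% of windows. It was higher in members in each GC band, for example 18.7% against 14.7% at 45 to 50%. No reordered letters were searched for this motif, so that the part of composition was not tested. CAGGGGGC, the core of the CTCF motif, was in 0.922% against 0.585%, but in the GC bands it was 0.481% against 0.474%, 0.863% against 0.811% and 1.78% against 1.5%. TAATTA, a homeobox motif, was less common in members, 8.25% against 10.9%, but within the band of 40 to 45% GC it was 9.26% against 9.08%. The AP-1 letters TGANTCA were in 9.33% (8.88 to 9.81%) against 8.89%, and their reversal ACTNAGT in 8.65% against 8.22%. In the GC bands AP-1 was at 9.89% against 9.34%, 9.22% against 8.79% and 8.98% against 7.77%, and the reversed letters at 8.85% against 8.67%, 8.65% against 8.04% and 7.99% against 7.17%. Both differences were small in every band.

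The other motifs differed little from the windows outside. GGAATG, bound by TEAD factors, was in 16.2% against 15.5%, and TGTGGT, bound by Runx factors, in 21.8% against 20.7%. TGTTTAC, of forkhead factors, was in 4.74% against 4.61%, and GGGCGGG, of SP and KLF factors, in 1.47% against 1.22%. In the GC bands GGGCGGG was at 0.866% against 0.857%, 1.32% against 1.62% and 2.73% against 3.35%. TTCNNNGAA, of STAT factors, was in 9.46% against 10.4%, while CCGGAAGT (ETS) and TGACGTCA (CREB) were rare, in 0.186% and 0.146% of members. A match is a description of the letters and not evidence of binding. First-intron and intergenic peaks were close to the members for most motifs, with the E-box in 16.0% and 17.9%, and a difference between these classes was not tested.

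**Figure D5:**
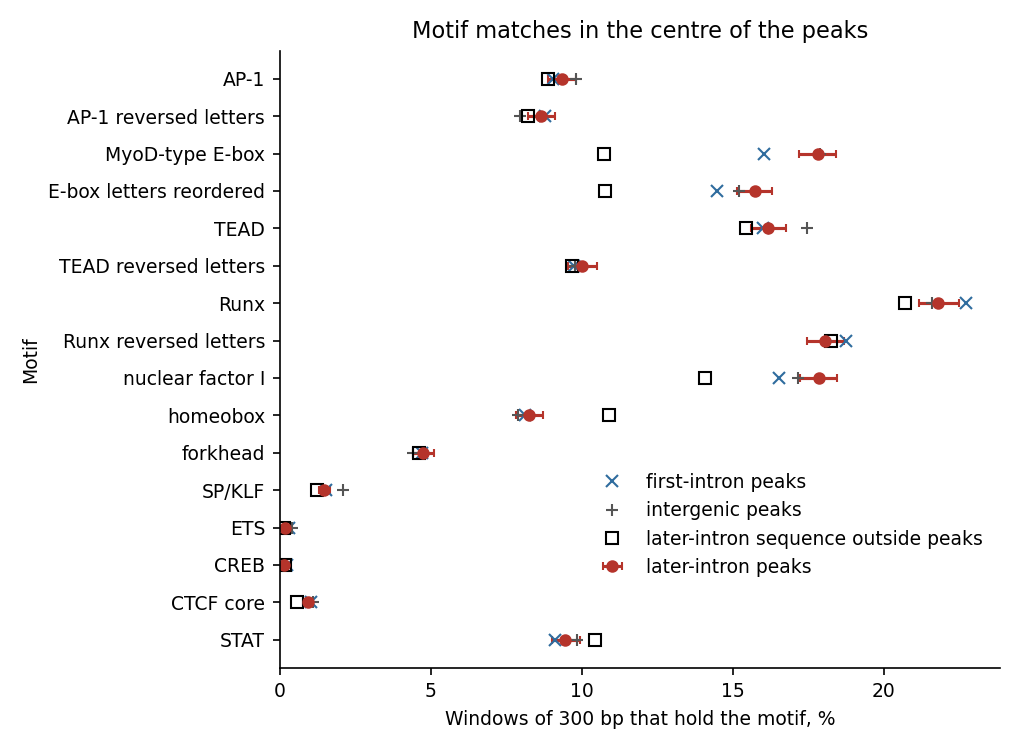
Share of 300 bp windows that hold each motif in percent (horizontal axis) for each motif (vertical axis); filled points with Wilson 95% intervals are later-intron peaks, crosses first-intron peaks, plus signs intergenic peaks and open squares later-intron sequence outside peaks. The E-box and its reordered letters lie at 17.8% and 15.7% in members, against 10.7% and 10.8% outside peaks, and AP-1 lies at 9.33% against 8.89%.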

How the data were processed

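H3K56ac ChIP-seq was done in freshly isolated MuSCs. The authors aligned the reads to mm10 with bowtie, keeping reads with 1 alignment, removed duplicates, called peaks with MACS2, removed blacklisted regions and merged overlapping peaks. The deposited list gives chromosome, start and end; its score column was 0 throughout, no fold, signal or count was given, and it held 0 columns of values per sample. The depth behind each peak is unknown. Merging widens and fuses peaks.

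Introns, exons and TSSs came from GENCODE vM21 and sequence from RefSeq, both on GRCm38, the same build as mm10. Coordinates count from 1. Eligible sequence was every base at which the conditions on position hold. Densities carry exact Poisson and shares Wilson 95% intervals, and ratios an exact conditional interval, all for counting error only; no p-value was computed. Scripts in Python (numpy, pandas, SciPy) were tested on a simulated annotation with known answers.

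Members, lists and motifs were chosen with earlier results of these data known. Named genes were the 15 with most members, the 10 densest with at least 50 kb eligible, the leading 3 of each list with its longest gene without a member, and Utrn. Named peaks were the 3 widest and the farthest from a TSS. Narrow peaks of at most 300 bp holding the motif letters, planned for printing from the muscle lists, were not found. Marker genes beside a count, the genes without a promoter peak and Rora were named after values were seen. Alternatives changed the TSS distance, the transcripts used, the containment and exon rules, the width limits and the joining of peaks, and chromosome X was added.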

Additional observations from a re-analysis of the deposited data

How the results depend on the processing

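In 61 comparisons of a value with its alternative, 36 stayed close, 24 moved and 1 turned its direction. A number of members was close when within 1.5 times the 15323 reported, and any other value when inside its counting interval. The reversal was the ratio to intergenic density, 0.980 when only TSSs of protein-coding transcripts counted. Joining peaks less than 1000 bp apart left 7115 members of median width 876 bp at 15.2 per Mb, with ratios of 0.585 to first introns and 1.35 to intergenic sequence, 95.1% in hosts with a promoter peak and a GC content of 44.4%. Asking only that the midpoint lie in eligible sequence gave 855 bp, 39.0 per Mb, ratios of 0.521 and 1.65, 95.8% and 44.98% GC. Without a width limit, the median was 833 bp and the density 33.8 per Mb. Peaks of at least 500 bp had a median of 922 bp and 27.6 per Mb. With basic transcripts only, the density was 33.7 per Mb and the ratio to intergenic sequence 1.48. Beyond 5000 bp from TSSs, the ratio to first introns was 0.501. With coding TSSs only, the GC content was 44.8%. Members numbered 12900 to 18178 in all settings but the joining. Over whole peaks the AP-1 letters were in 28.9% and the E-box in 44.2%. The causes were not tested.

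No paired analysis was possible because no column of the list belongs to a replicate, and leaving out a replicate was not run for the same reason. The depth behind each peak, its height and the contribution of each genotype are unknown. A density of 32.8 per Mb describes the merged list only.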

Other observations

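A further 257 peaks on chromosome X met every condition except that of lying on an autosome. The 3 genes with the most members and no promoter peak, chosen after their values were seen, were Agbl4 with 24 members at 29.8 per Mb, the receptor tyrosine kinase gene Alk with 19 at 38.5 per Mb and Ptprq, a receptor phosphatase gene, with 18 at 93.2 per Mb. They lay in 806, 493 and 193 kb of eligible sequence, and Alk held no first-intron peak in 209 kb, while Ptprq has no eligible first-intron sequence. Rora, a nuclear receptor gene also picked after the fact, held 28 members at 251 per Mb beside 174 first-intron peaks.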
